A study of Mus musculus with 24 samples.

Results

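The comparison described here is that of inguinal subcutaneous white fat from mice with the D316A transgene in a high-fat and in a chow cohort. It used 12 of the 24 libraries of the series, 6 labelled D316A-Tg on a high-fat diet (HFD) and 6 labelled D316A-Tg on chow, chosen by these labels alone. Both groups were C57BL/6J mice carrying a gain-of-function γ1 subunit, encoded by Prkag1, of the AMP-activated protein kinase (AMPK). The chow mice were 16 weeks old, and the HFD mice were 24 weeks old and ate a diet with 45% fat. The other 12 libraries of the series, labelled WT-Tg, came from mice with the wild-type subunit as transgene on the same diets at the same ages. They are used for the same comparison in WT-Tg, for the test of a difference between transgenes and in the scaling of CPM. The sources used here do not give the promoter of the transgene, the cells that express it or the sex of the mice.

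Diet, age, base-calling software and count table changed together between the groups. Every difference below is therefore a difference between cohorts, and the parts of diet, age and processing in it cannot be told apart. Whether each library is a different mouse is not said in the labels, so a p-value speaks only of the spread among libraries, part of which may be technical. RNA came from whole fat pads, in which fewer cells of a type and less RNA per cell cannot be told apart.

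AMPK is a heterotrimeric kinase of α, β and γ subunits that senses AMP and ATP through the γ subunit. Once active it phosphorylates acetyl-CoA carboxylase and HMG-CoA reductase, which slows the synthesis of fatty acids and of sterols, and it favours the oxidation of fuel. Subcutaneous fat takes up and stores surplus energy by enlarging its adipocytes, which secrete leptin and other hormones, and under cold or adrenergic drive it can form beige adipocytes with the uncoupling protein Ucp1.

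The 12 libraries held between 14756322 and 20774533 counts. Adipocyte transcripts were abundant in all of them. Adipoq, the adipocyte hormone adiponectin (ENSMUSG00000022878, chromosome 16, 23146536 to 23158028, plus strand), lay from 1641 to 4854 CPM on chow (median 4618) and from 2292 to 4052 CPM on HFD (median 3209.7), where CPM is counts per 1e6 counts after TMM scaling. The groups overlapped for Adipoq and its difference did not pass the test (log2 fold change -0.26, adjusted p = 0.557). Markers of other cells varied far more. The B lymphocyte list had a score, its mean log2 CPM, of 6.38 and 5.48 in chow libraries 8 and 11 and of -0.44 or less in chow libraries 7, 9, 10 and 12. On HFD the score was 3.83 or more in libraries 7, 8, 9 and 11 and 0.62 and 1.82 in libraries 10 and 12. Its 17 matched markers summed to 12.1 to 1983 CPM on chow and to 46.1 to 1456 CPM on HFD. The skeletal muscle contractile list of 31 matched genes summed to 212 to 883 CPM on chow and to 594 to 27127 CPM on HFD, and its highest value was that of HFD library 7. In both lists 0 members were at 0 in every library of a group. The protocol states that the lymph node was removed before freezing.

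**Figure D1:**
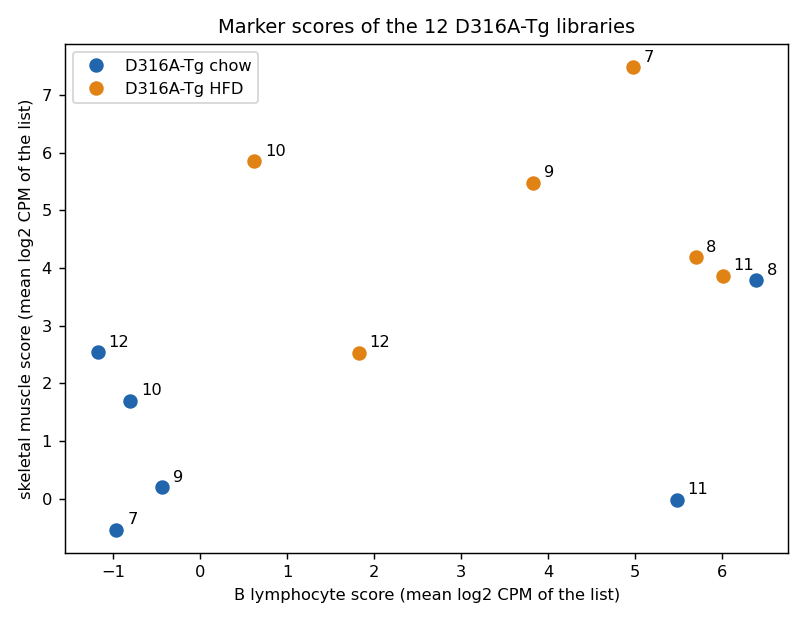
B lymphocyte score (x axis) against skeletal muscle contractile score (y axis), both as mean log2 CPM of the list, for each D316A-Tg library with its number from the title. Libraries 8 and 11 on chow and 7, 8, 9 and 11 on HFD lie over a B lymphocyte score of 3, and HFD library 7 has the highest muscle score (7.49).

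Transcripts differed widely between the cohorts, in both directions. Most tested genes of adipocyte expansion, and leptin, rose on HFD, most of de novo lipogenesis and of mitochondrial respiration fell, and in cholesterol synthesis 2 enzymes rose and 5 fell. In all, edgeR's quasi-likelihood test called 4546 of 14752 genes (30.8%), 2081 higher and 2465 lower on HFD. Adjusted p-values here are from that test with Benjamini-Hochberg adjustment over all genes tested, and a gene was called below 0.05. Predicted genes and clones leaned one way: 124 rose and 947 fell of 1997, with a median log2 fold change of -0.71. Their share of counts was 4.38% to 6.56% in the chow libraries and 2.55% to 3.32% in the HFD libraries. Together with pseudogenes and genes that have processed pseudogene copies they were set aside. Of the 11142 genes kept, 2893 were called (26.0%). The 1591 that rose made up 14.3% and the 1302 that fell 11.7%. The median log2 fold change of the kept genes was 0.01, and 941 of the called genes differed at least 2-fold (638 higher, 303 lower). In 850 kept genes (7.63%) every HFD library lay above every chow library, and in 394 (3.54%) every HFD library lay below.

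**Figure D2:**
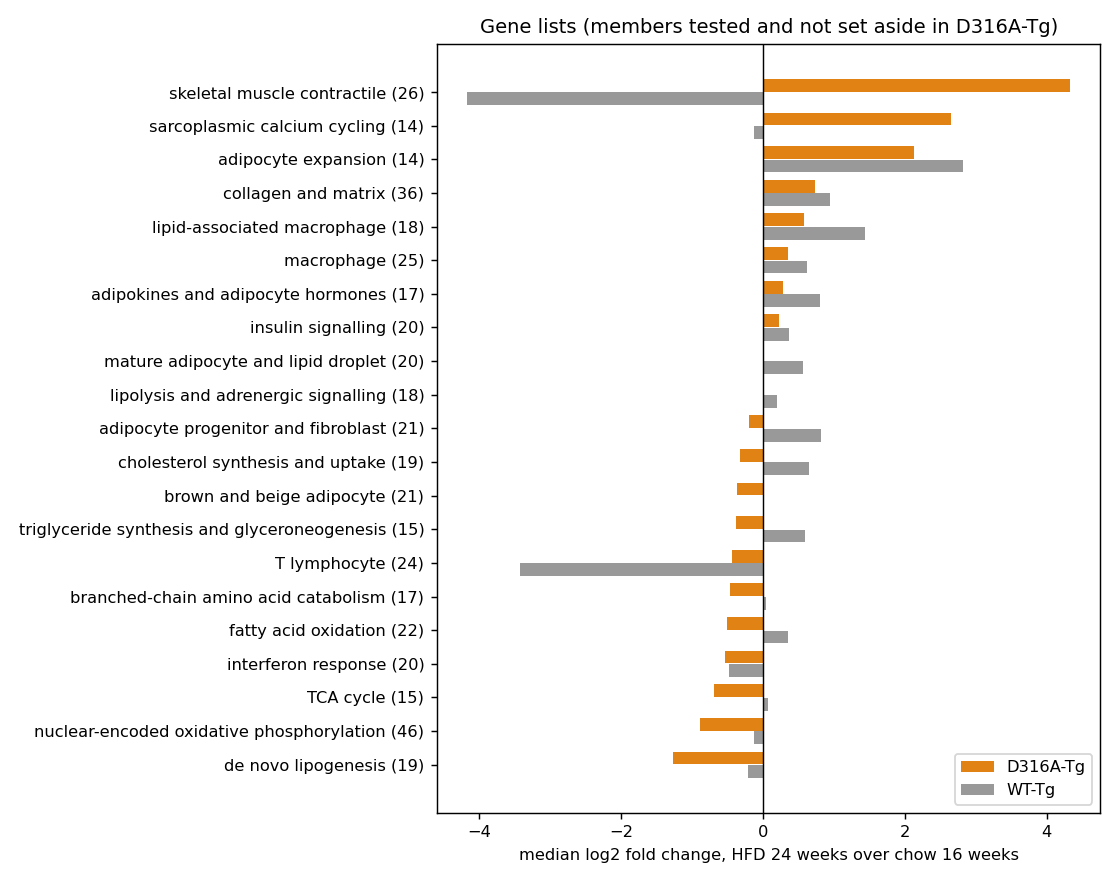
Median log2 fold change (x axis) of the members of each gene list, HFD at 24 weeks over chow at 16 weeks, in D316A-Tg (orange) and WT-Tg (grey), with the number of D316A-Tg members tested in brackets. In D316A-Tg the median was 2.13 for adipocyte expansion, -1.26 for de novo lipogenesis and -0.88 for oxidative phosphorylation, and the skeletal muscle list had opposite signs in the transgenes (4.33 and -4.17).

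Genes that follow adipocyte expansion differed on HFD at a median log2 fold change of 2.13. Of 14 members tested, 9 rose and 0 fell, against 14.3% and 11.7% of all kept genes. Mest, an imprinted gene of the hydrolase fold whose level in fat tracks the growth of adipocytes (ENSMUSG00000051855, chromosome 6, 30723547 to 30748465, plus strand), lay from 9.9 to 25.4 CPM on chow (median 12) and from 217 to 2527 CPM on HFD (median 652). All 6 HFD libraries were above all 6 chow libraries, a 70.6-fold difference (log2 fold change 6.14, SE 0.67, adjusted p = 1.71e-05). Exons of another gene overlap 23.1% of the exon length of Mest. Sfrp5, a secreted inhibitor of Wnt signalling made by adipocytes, lay from 1.9 to 8.12 CPM on chow (median 5.23) and from 62.4 to 379 CPM on HFD (median 176). The groups did not overlap for Sfrp5 either (log2 fold change 5.26, SE 0.57, adjusted p = 1.55e-05). Trp53inp2, a regulator of autophagy and transcription, lay from 146 to 505 CPM on chow (median 344) and from 749 to 2986 CPM on HFD (median 1477) (log2 fold change 2.13, adjusted p = 0.000807). The list median was 2.17 among the lymphocyte-rich libraries alone (score over 3, 2 chow and 4 HFD) and 2.51 among the others (4 chow and 2 HFD), with 11 and 11 members higher and 0 lower in each. Of all kept genes 16.5% rose and 10.0% fell in the lymphocyte-rich set, and 24.5% rose and 19.6% fell in the lymphocyte-poor set, so counts within a set are read against its own shares.

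Calls among the hormones and secreted factors of fat went both ways, and the clearance receptor of natriuretic peptides, a membrane protein, is given with them. Lep, the satiety hormone that rises with fat mass (ENSMUSG00000059201, chromosome 6, 29060220 to 29073877, plus strand), lay from 91.2 to 756 CPM on chow (median 264) and from 1247 to 9438 CPM on HFD (median 2828). The lowest HFD library exceeded the highest chow library, and the fold change was 10.7 (log2 fold change 3.42, SE 0.65, adjusted p = 0.00189). Npr3, which removes natriuretic peptides from the circulation and lowers their lipolytic signal in fat, lay from 116 to 641 CPM on chow (median 281) and from 920.2 to 2824 CPM on HFD (median 1906), again without overlap (log2 fold change 2.62, SE 0.40, adjusted p = 0.000371). Itih5, a heavy chain of the inter-alpha-trypsin inhibitor family that binds hyaluronan, lay from 183 to 462 CPM on chow (median 382) and from 588 to 1426 CPM on HFD (median 889) (log2 fold change 1.41, adjusted p = 0.00301). Cfd, the adipocyte protease adipsin that activates the alternative complement pathway, fell, from 6666 to 24879 CPM on chow (median 18933) and from 1363 to 7469 CPM on HFD (median 4860.2) (log2 fold change -1.84, adjusted p = 0.00653). Among lymphocyte-rich libraries alone the log2 fold change of Cfd was -0.41 (adjusted p = 0.253), and among the others it was -2.87. Of the 17 hormones and secreted factors of fat tested, 5 rose and 2 fell (median 0.28), beside 14.3% and 11.7% of kept genes.

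**Figure D3:**
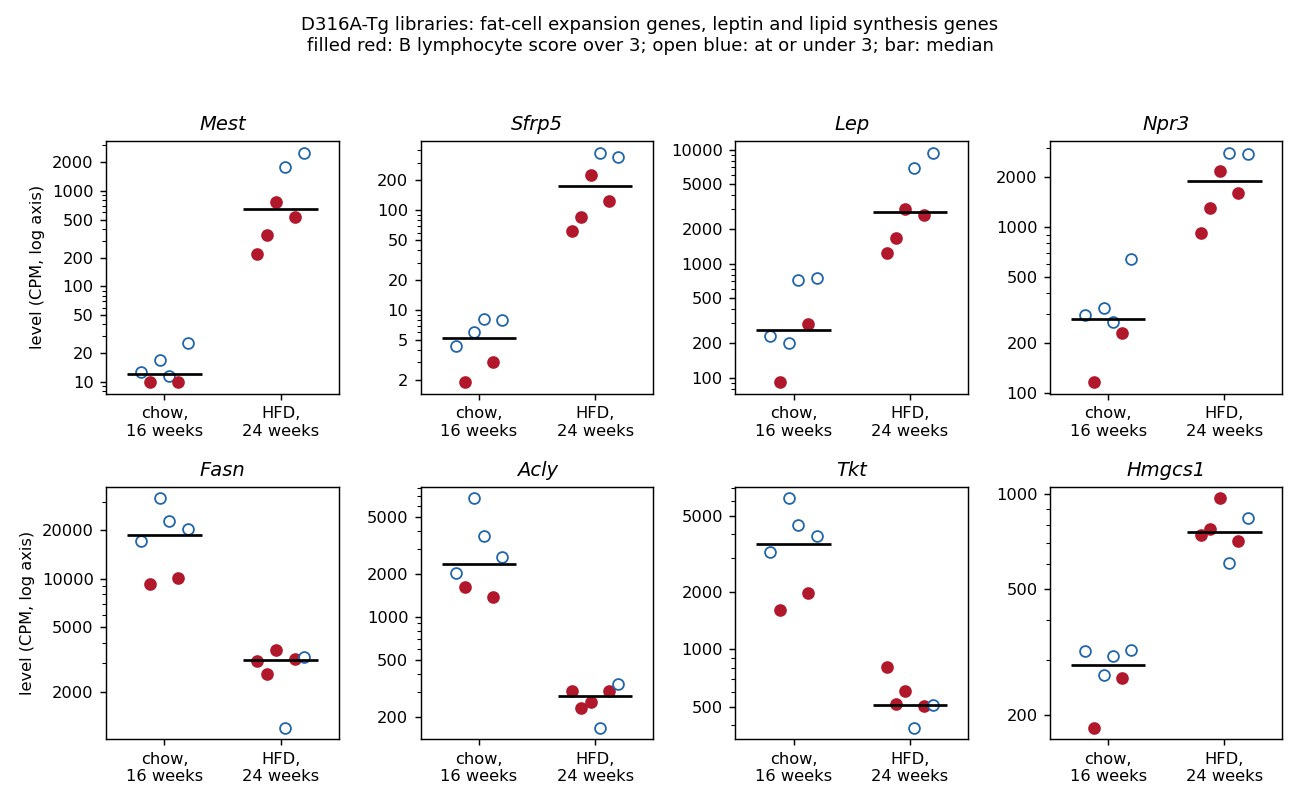
Level in CPM (y axis, log scale) of 8 genes in each D316A-Tg library, chow on the left and HFD on the right of each panel. Filled red points are libraries with a B lymphocyte score over 3, open blue points the others, and bars are medians. The groups do not overlap in any of the 8 panels, with Mest, Sfrp5, Lep, Npr3 and Hmgcs1 higher and Fasn, Acly and Tkt lower on HFD.

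Many enzymes that build fatty acids from glucose carbon fell on HFD. Of 19 members of the de novo lipogenesis list, 10 fell and 0 rose, beside 11.7% and 14.3% of kept genes. The list median was -1.26, beside 0.01 over all kept genes. Acly, ATP-citrate lyase, which makes cytosolic acetyl-CoA from citrate (ENSMUSG00000020917, chromosome 11, 100476353 to 100528000, minus strand), lay from 1382 to 6767 CPM on chow (median 2328) and from 167 to 338 CPM on HFD (median 278). Every HFD library was below every chow library, an 11.5-fold difference (log2 fold change -3.52, SE 0.40, adjusted p = 2.29e-05). Fasn, fatty acid synthase, which joins these units into palmitate (ENSMUSG00000025153, chromosome 11, 120805846 to 120824547, minus strand), lay from 9214 to 31521 CPM on chow (median 18787) and from 1189.7 to 3618 CPM on HFD (median 3130.5). Fasn also showed no overlap and was 6.69-fold lower (log2 fold change -2.74, SE 0.36, adjusted p = 0.000106). Tkt, the transketolase of the pentose phosphate pathway, lay from 1610.4 to 6187 CPM on chow (median 3584) and from 388 to 813 CPM on HFD (median 512) (log2 fold change -2.70, SE 0.33, adjusted p = 4.37e-05). Elovl5, an elongase of polyunsaturated fatty acids, fell, from 138 to 279 CPM on chow (median 168) and from 82.6 to 100.1 CPM on HFD (median 93.8) (log2 fold change -1.07, adjusted p = 0.000504). Fasn, Acly and Tkt were lower within both sets of libraries: among the lymphocyte-rich ones the log2 fold changes were -1.68, -2.50 and -1.59, and among the others -3.39, -3.93 and -3.35. The list as a whole had a median of -0.63 in the first set, with 2 members higher and 7 lower, and of -1.78 in the second.

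The promoters of Fasn and Acly are shown because these genes fell without overlap between the groups, and those of Hmgcs1 and Tm7sf2 because these enzymes of cholesterol synthesis moved in opposite directions. Each is the 250 bases before the RefSeq transcription start on GRCm38.p6, 5′ to 3′ on the strand of the gene. Capitals mark matches, on either strand, to the E-box CACGTG, the sterol-response motif TCACNCCAC and the CCAAT box (CCAAT, or ATTGG on the opposite strand). Fasn is chr11:120824548-120824797 on the minus strand, Acly chr11:100528001-100528250 on the minus strand, Hmgcs1 chr13:119690101-119690350 on the plus strand and Tm7sf2 chr19:6067851-6068100 on the minus strand.
Fasn: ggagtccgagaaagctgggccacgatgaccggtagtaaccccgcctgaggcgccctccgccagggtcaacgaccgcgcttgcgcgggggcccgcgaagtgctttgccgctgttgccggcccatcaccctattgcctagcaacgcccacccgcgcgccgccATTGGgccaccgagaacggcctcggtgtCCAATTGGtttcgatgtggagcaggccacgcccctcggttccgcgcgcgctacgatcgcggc
Acly: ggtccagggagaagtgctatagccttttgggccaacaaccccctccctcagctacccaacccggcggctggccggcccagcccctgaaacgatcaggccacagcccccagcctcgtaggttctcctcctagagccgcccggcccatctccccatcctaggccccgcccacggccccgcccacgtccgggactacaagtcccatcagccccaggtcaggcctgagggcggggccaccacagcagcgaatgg
Hmgcs1: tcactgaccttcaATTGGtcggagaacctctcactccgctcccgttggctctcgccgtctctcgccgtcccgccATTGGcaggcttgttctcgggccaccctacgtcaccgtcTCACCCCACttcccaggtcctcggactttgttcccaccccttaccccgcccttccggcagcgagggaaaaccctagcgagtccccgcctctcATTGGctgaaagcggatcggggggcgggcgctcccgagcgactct
Tm7sf2: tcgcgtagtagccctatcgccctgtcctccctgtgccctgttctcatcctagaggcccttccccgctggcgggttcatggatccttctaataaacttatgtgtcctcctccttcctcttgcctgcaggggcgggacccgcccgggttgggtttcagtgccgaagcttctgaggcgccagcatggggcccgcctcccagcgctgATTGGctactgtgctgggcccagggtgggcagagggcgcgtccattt
The Fasn window held 3 CCAAT matches, of which 2 overlap on opposite strands, and the Acly window held none of the 3 motifs. The Hmgcs1 window held the sterol-response motif from 137 to 129 bases before the annotated start, together with 3 CCAAT matches. That start lies 28 bases from the nearest start in GENCODE. The Tm7sf2 window held 1 CCAAT match. Over all 32851 promoters the E-box matched in 6.02%, the sterol-response motif in 1.05% and the CCAAT box in 33.8%. Counted over genes, 10 of 15 lipogenesis members with a promoter in the table held a CCAAT box (7 of them lower). So did 14 of 14 cholesterol members (2 higher, 4 lower, 8 not called). The share was 37.5% over all 27025 genes with a promoter. Those genes were not limited to the ones tested and kept here, as the list members were, so the sets are unlike. A match describes the letters in the window and not binding.

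Calls in cholesterol synthesis went both ways. Of 19 members, 2 rose and 5 fell, beside 14.3% and 11.7% of kept genes, and 12 did not pass the test (median -0.33). Hmgcs1, the HMG-CoA synthase at the entry to the mevalonate pathway (ENSMUSG00000093930, chromosome 13, 119690379 to 119708260, plus strand), lay from 183 to 321 CPM on chow (median 288) and from 604 to 970.1 CPM on HFD (median 758). The lowest HFD library was above the highest chow library (log2 fold change 1.46, SE 0.16, adjusted p = 2.11e-05). Hsd17b7, a reductase of the last steps of the pathway, lay from 6.16 to 11 CPM on chow (median 9.66) and from 15 to 33.3 CPM on HFD (median 18.6) and also rose without overlap (log2 fold change 1.18, adjusted p = 0.00164). Tm7sf2, the sterol C14-reductase, lay from 12.2 to 23.5 CPM on chow (median 17.6) and from 5.72 to 12.9 CPM on HFD (median 6.8), and fell with a slight overlap (log2 fold change -1.16, adjusted p = 0.00214). Pmvk, phosphomevalonate kinase, lay from 62.5 to 203 CPM on chow (median 149.9) and from 53.5 to 99.8 CPM on HFD (median 67) (log2 fold change -0.98, adjusted p = 0.0114). HFD library 12 was the highest of its group for both Tm7sf2 and Pmvk. Hmgcs1 and Hsd17b7 rose within the lymphocyte-rich libraries (1.80 and 1.06) and within the others (1.21 and 1.53), whereas Pmvk was called only among the others (-1.16, against -0.20 with adjusted p = 0.311). That difference between sets of libraries was not tested.

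Of genes for the synthesis of triglycerides from fatty acids, 4 of 15 members fell and 0 rose (median -0.38), beside 11.7% and 14.3% of kept genes. Gpd2, the mitochondrial glycerol-3-phosphate dehydrogenase, lay from 183 to 452 CPM on chow (median 299.9) and from 45.4 to 272 CPM on HFD (median 82.2). The HFD value of 272 CPM was that of library 7 and the next was 85.7 CPM in library 9 (log2 fold change -1.54, adjusted p = 0.00873). Dgat1, which adds the last fatty acid to diglyceride, lay from 192 to 556 CPM on chow (median 475) and from 194 to 281 CPM on HFD (median 235) (log2 fold change -0.83, adjusted p = 0.022). Agpat3, an acyltransferase of phosphatidic acid synthesis, lay from 197 to 363 CPM on chow (median 304) and from 175 to 258 CPM on HFD (median 179) (log2 fold change -0.58, adjusted p = 0.0194). The fall of Dgat1 and Agpat3 was seen in the lymphocyte-poor libraries (-1.13 and -0.95). Among the lymphocyte-rich libraries their log2 fold changes were 0.02 and -0.03, and 4 members of the list rose and 0 fell. The difference between the sets was not tested.

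Nuclear genes for the respiratory chain were lower on HFD. Of 46 subunits of oxidative phosphorylation, 38 fell, 1 rose and 7 did not pass the test (median -0.88), where 11.7% of kept genes fell and 14.3% rose. With members that have any pseudogene copy left out, 32 of 37 fell and 0 rose. Sdhb, the iron-sulphur subunit of complex II, has no such copy and lay from 251 to 561 CPM on chow (median 507) and from 159.6 to 427 CPM on HFD (median 205) (log2 fold change -0.95, adjusted p = 0.0169). HFD library 7 gave the 427 CPM. Of members with a copy, Ndufa6 of complex I lay from 144 to 286 CPM on chow (median 255) and from 73.5 to 138 CPM on HFD (median 77.8) (log2 fold change -1.42, adjusted p = 0.000146) and Uqcr10 of complex III lay from 208 to 490.0 CPM on chow (median 401) and from 96.6 to 202 CPM on HFD (median 118) (log2 fold change -1.54, adjusted p = 0.000286). Both had no overlap between groups. Cox7c of complex IV was the member that rose, from 24.3 to 41.4 CPM on chow (median 37.4) and from 89.3 to 146 CPM on HFD (median 98.4), and it has 5 pseudogene copies.

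The respiratory list is given within the lymphocyte-poor and the lymphocyte-rich libraries, whose B lymphocyte scores still differed between cohorts. In the lymphocyte-poor set the scores were 0.62 and 1.82 on HFD and -0.44 or less on chow. In the lymphocyte-rich set they were 3.83 to 6.005 on HFD and 5.48 and 6.38 on chow. Among the 4 chow and 2 HFD lymphocyte-poor libraries 45 of the respiratory subunits fell (median -1.38), beside 19.6% of kept genes. Among the 2 chow and 4 HFD lymphocyte-rich libraries 1 fell and 1 rose (median -0.18), beside 10.0% and 16.5% of kept genes. On chow the list score was 7.40 and 7.80 in the lymphocyte-rich libraries 8 and 11 and between 8.38 and 8.55 in the others. On HFD library 7 had the highest score (8.00) and the other 5 lay between 7.05 and 7.41. With the muscle score as covariate 9 members fell, at a median of -1.07, where 2.70% of kept genes fell and 5.50% rose. The difference between the 2 sets of libraries was not tested.

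**Figure D4:**
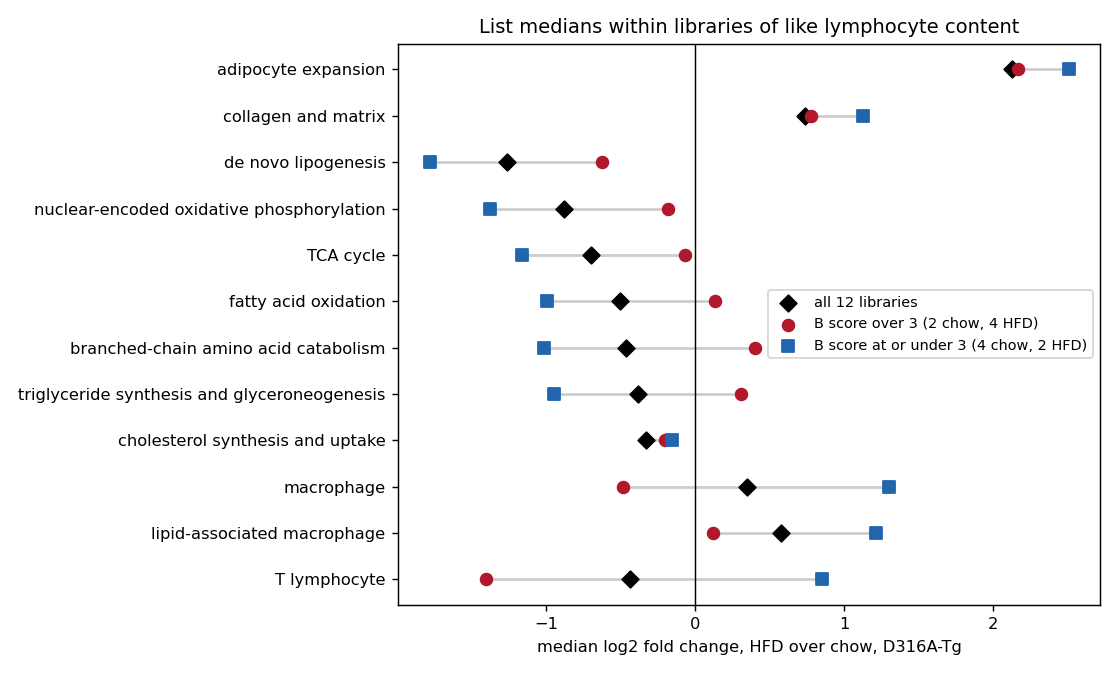
Median log2 fold change (x axis) of gene lists in D316A-Tg, HFD over chow, over all 12 libraries (black diamonds), over the 6 with a B lymphocyte score over 3 (red circles) and over the other 6 (blue squares). The adipocyte expansion list keeps its position (2.13, 2.17 and 2.51), whereas oxidative phosphorylation goes from -1.38 in the lymphocyte-poor to -0.18 in the lymphocyte-rich libraries.

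The TCA cycle and fatty acid oxidation lists are given for the same sets. Over all libraries 11.7% of kept genes fell and 14.3% rose. These shares were 19.6% and 24.5% in the lymphocyte-poor set and 10.0% and 16.5% in the lymphocyte-rich set. In the TCA cycle list 8 of 15 members fell (median -0.70), 14 in the lymphocyte-poor (median -1.16) and 0 in the lymphocyte-rich libraries (median -0.07). Pcx, pyruvate carboxylase, which refills the cycle and supplies citrate for lipogenesis, lay from 1176 to 3970.5 CPM on chow (median 2976) and from 786 to 1365 CPM on HFD (median 885) (log2 fold change -1.44, adjusted p = 0.00436). Idh3b, a subunit of isocitrate dehydrogenase, had a log2 fold change of -0.96 (adjusted p = 0.0141), and Dlat, the acetyltransferase of pyruvate dehydrogenase, one of -0.83 (adjusted p = 0.0175). For fatty acid oxidation 7 of 22 members fell and 1 rose (median -0.50). In the lymphocyte-poor libraries 18 fell and 1 rose (median -0.996), and in the lymphocyte-rich ones 0 fell and 1 rose (median 0.14). Hadha, the α subunit of the trifunctional protein, lay from 517 to 1146 CPM on chow (median 914) and from 237 to 628 CPM on HFD (median 319) (log2 fold change -1.33, adjusted p = 0.00181). Eci1, an isomerase for unsaturated acyl chains, lay from 160.3 to 375 CPM on chow (median 337) and from 98.7 to 204 CPM on HFD (median 122) (log2 fold change -1.20, adjusted p = 0.00195), and Ehhadh, the peroxisomal bifunctional enzyme, from 81.7 to 240.1 CPM on chow (median 154) and from 51.9 to 95.5 CPM on HFD (median 62.8) (log2 fold change -1.21, adjusted p = 0.00189). The member that rose was Cpt1a, the carnitine palmitoyltransferase that lets long acyl chains into mitochondria, from 25.4 to 55 CPM on chow (median 37.6) and from 69.2 to 212 CPM on HFD (median 114). Its groups did not overlap (log2 fold change 1.66, SE 0.27, adjusted p = 0.000547), and it rose in the lymphocyte-rich (0.95) and in the lymphocyte-poor libraries (2.39). Of 17 genes of branched-chain amino acid catabolism 1 fell over all libraries (median -0.46), 16 in the lymphocyte-poor set, where 19.6% of kept genes fell, and in the lymphocyte-rich set, where 16.5% rose, 3 rose. None of these differences between sets was tested.

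Transcripts of the mitochondrial genome differed in sign. The 13 matched members summed to 65758 to 139180 CPM on chow (median 100720.0) and to 61709 to 115950.0 CPM on HFD (median 66561). mt-Co1, a subunit of complex IV encoded there, lay from 28007 to 60333 CPM on chow (median 38980.0) and from 24402 to 42480.0 CPM on HFD (median 25703), with a difference that did not pass edgeR's test (log2 fold change -0.55, adjusted p = 0.11). It was called lower by DESeq2 (adjusted p = 0.0201) and in the lymphocyte-poor libraries (-0.82, adjusted p = 0.0354). mt-Co3, its neighbour in the same enzyme, lay from 0.844 to 1.8 CPM on chow (median 1.5) and from 16.5 to 42.9 CPM on HFD (median 20.6) (log2 fold change 4.01, adjusted p = 2.13e-07). Both have pseudogene copies at other places in the genome. The 5 calls among 9 members of the list (median 3.62) are all higher, and the part of the count table in them cannot be told apart from that of the cohort.

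Beige adipocyte genes were mixed and Ucp1 turned on a single library. Ucp1, the uncoupling protein of brown and beige fat (ENSMUSG00000031710, chromosome 8, 83290352 to 83298452, plus strand), lay from 98.9 to 699 CPM (median 251) on chow. On HFD it was 1050.3 CPM in library 7, 60.3 in library 8, 10.1 in library 9, 5.41 in library 10, 7.43 in library 11 and 1.35 in library 12. So 5 of 6 HFD libraries lay below all chow libraries and library 7 lay above them. The log2 fold change over all 12 was -0.68 (SE 1.32, adjusted p = 0.748), and without library 7 it was -4.07 (adjusted p = 0.00909). It was -5.76 (adjusted p = 0.00238) in the lymphocyte-poor libraries, where HFD is libraries 10 and 12. Library 7 also had the highest score of the muscle and mitochondrial genome lists, and the part of either in its Ucp1 level was not tested.

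Of the 21 genes of the brown and beige list 2 rose and 3 fell (median -0.37), beside 14.3% and 11.7% of kept genes. Without library 7 the counts were 2 and 9, where 14.7% of kept genes rose and 11.3% fell. Acot11, a thioesterase of brown fat, lay from 41.4 to 129.6 CPM on chow (median 63.1) and from 3.12 to 55.8 CPM on HFD (median 6.78), with library 7 again highest on HFD (log2 fold change -2.44, adjusted p = 0.0187). Ppargc1b, a coactivator of mitochondrial genes, lay from 10.9 to 15.3 CPM on chow (median 14.6) and from 3.02 to 11.5 CPM on HFD (median 5.53) (log2 fold change -1.29, adjusted p = 0.00406). Esrrg, an orphan nuclear receptor that drives oxidative genes, rose, from 1.62 to 4.6 CPM on chow (median 3.78) and from 4.71 to 15.2 CPM on HFD (median 8.88) (log2 fold change 1.38, adjusted p = 0.00652). Fgf21, a hormone of fasting and of stressed fat, stayed under 2 CPM in all 12 libraries and rose (log2 fold change 1.26, adjusted p = 0.00165).

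Of 18 genes of lipolysis and of its adrenergic control, 1 rose and 3 fell (median -0.00), beside 14.3% and 11.7% of kept genes. The member that rose was Npr3, described above. Adrb3, the β3-adrenergic receptor through which catecholamines start lipolysis, lay from 227 to 836 CPM on chow (median 514) and from 103 to 363 CPM on HFD (median 204) (log2 fold change -1.30, adjusted p = 0.0197). Its log2 fold change was -2.50 in the lymphocyte-poor and 0.05 in the lymphocyte-rich libraries. Npr1, the signalling receptor of natriuretic peptides, lay from 32.7 to 86 CPM on chow (median 54.6) and from 20.5 to 43 CPM on HFD (median 28.1) (log2 fold change -0.92, adjusted p = 0.0194). Niacr1, the niacin and hydroxybutyrate receptor that inhibits lipolysis, lay from 27.6 to 137 CPM on chow (median 59) and from 19.7 to 40.4 CPM on HFD (median 29.8) (log2 fold change -1.34, adjusted p = 0.0162). Among mature adipocyte and lipid droplet genes 1 rose and 1 fell of 20, at a median of 0.02, which was -0.00 after upper-quartile scaling.

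In glucose handling, a kinase that controls pyruvate use and a fructose transporter fell. Pdk1, the kinase that switches pyruvate dehydrogenase off, lay from 124 to 229.9 CPM on chow (median 147) and from 35.2 to 66.6 CPM on HFD (median 48.9), without overlap (log2 fold change -1.75, SE 0.19, adjusted p = 1.71e-05). Slc2a5, the fructose transporter GLUT5, lay from 18.4 to 80.5 CPM on chow (median 35.2) and from 0.0539 to 2.32 CPM on HFD (median 0.128). HFD library 7 held 2.32 CPM and the next HFD library 0.22, so the log2 fold change of -6.30 (SE 0.88, adjusted p = 0.000173) rests on few counts on the HFD side. Pfkl, the liver-type phosphofructokinase, lay from 193 to 441 CPM on chow (median 340.1) and from 110.2 to 235 CPM on HFD (median 122) (log2 fold change -1.26, adjusted p = 0.00141) and has a pseudogene copy. Of the 16 members of the glucose uptake and glycolysis list 2 rose and 4 fell, beside 14.3% and 11.7% of kept genes.

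Insulin signalling genes were called in 7 of 20 cases, 6 higher and 1 lower, beside 14.3% and 11.7% of kept genes. Pdpk1, the kinase PDK1 that activates AKT, lay from 53.5 to 70.0 CPM on chow (median 62.5) and from 101 to 125 CPM on HFD (median 104), a small difference without overlap (log2 fold change 0.79, SE 0.09, adjusted p = 2.27e-05). Irs2, a docking protein of the insulin receptor, lay from 8.93 to 28.1 CPM on chow (median 16.9) and from 29.5 to 48.4 CPM on HFD (median 40.0) (log2 fold change 1.14, adjusted p = 0.00651). Grb14, an adaptor that inhibits the insulin receptor, lay from 14 to 53.1 CPM on chow (median 31) and from 67.4 to 123 CPM on HFD (median 86.7) (log2 fold change 1.44, adjusted p = 0.002). Foxo1, the transcription factor that insulin keeps out of the nucleus, lay from 88.6 to 157 CPM on chow (median 109.8) and from 134 to 281 CPM on HFD (median 205) (log2 fold change 0.83, adjusted p = 0.00566) and has 4 pseudogene copies. Pdpk1 rose within both sets of libraries (0.86 and 0.74).

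The gene of the transgene's subunit did not pass the test. Prkag1 (ENSMUSG00000067713, chromosome 15, 98812797 to 98831521, minus strand) lay from 280.2 to 531 CPM on chow (median 374) and from 256 to 752 CPM on HFD (median 322) (log2 fold change 0.02, SE 0.26, adjusted p = 0.969). The highest value was that of HFD library 7, and other genes overlap 43.7% of its exon length. Both groups carry the transgene, so the level checks no label. Prkag3, the γ3 subunit typical of fast skeletal muscle, lay from 0.106 to 1.18 CPM on chow (median 0.416) and from 2.9 to 23.6 CPM on HFD (median 7.53), with all HFD libraries higher (log2 fold change 4.42, SE 0.67, adjusted p = 0.000304). Muscle genes rose beside it. HFD library 12, with the lowest muscle score of its group (2.53), held 19.9 CPM of Prkag3 and library 7, with the highest, held 7.28. With the muscle score as covariate the log2 fold change of Prkag3 was 4.55 (adjusted p = 0.00578). Both libraries were chosen after their values were seen, and the part of muscle in the level of Prkag3 was not tested. Of the 7 AMPK subunits tested, Prkag3 alone was called.

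Skeletal muscle transcripts were much higher in the HFD libraries. Of 26 contractile genes 19 rose and 0 fell (median 4.33), beside 14.3% and 11.7% of kept genes. Among 14 genes of sarcoplasmic calcium cycling 9 rose and 0 fell (median 2.65). Acta1, skeletal muscle actin, lay from 3.52 to 95.6 CPM on chow (median 22) and from 89.7 to 3646 CPM on HFD (median 294) (log2 fold change 4.72, adjusted p = 0.00821). Myh4, the fastest myosin heavy chain, lay from 0 to 76.1 CPM on chow (median 20.6) and from 5.98 to 6906 CPM on HFD (median 339) (log2 fold change 5.77, adjusted p = 0.0298). The groups overlapped for both, HFD library 7 held the top value, and Myh4 in HFD library 12 was at 5.98 CPM, under 3 chow libraries. Ryr1, through which muscle releases stored calcium, lay from 0.898 to 9.08 CPM on chow (median 1.96) and from 4.31 to 374 CPM on HFD (median 29.2) (log2 fold change 4.78, adjusted p = 0.00697). Jph2, which ties the sarcoplasmic reticulum to the plasma membrane, had a log2 fold change of 4.04 (adjusted p = 0.00531). Jph1, its skeletal muscle relative, and Casq2, a calsequestrin, rose without overlap, Jph1 from 2.11 to 5.06 CPM on chow (median 3.6) and from 8.49 to 41.3 CPM on HFD (median 15.8) and Casq2 from 0.324 to 0.739 CPM on chow (median 0.479) and from 0.929 to 4.42 CPM on HFD (median 1.93). With the muscle score as covariate the calcium cycling median was 0.15 with 1 member higher, Casq2 (2.26, adjusted p = 0.0291). The covariate is made of the contractile list and so says nothing on that list. The part of muscle carried over at dissection in these values was not tested.

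Creatine cycling, a proposed heat-producing pathway of beige fat, had 4 of 6 members higher and 0 lower (median 0.84). The shares over all kept genes were 14.3% and 11.7%. Slc6a8, the creatine transporter, lay from 8.08 to 15.5 CPM on chow (median 13.5) and from 13.4 to 35.9 CPM on HFD (median 23.9) (log2 fold change 0.92, adjusted p = 0.0138), and Gatm, the first enzyme of creatine synthesis, from 3.25 to 7.18 CPM on chow (median 5.44) and from 7.12 to 11.3 CPM on HFD (median 9.47) (log2 fold change 0.76, adjusted p = 0.016). With the muscle score as covariate 0 members rose (median 0.40).

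Of 36 extracellular matrix genes 12 rose, 3 fell and 21 did not pass the test (median 0.74), where 14.3% of kept genes rose and 11.7% fell. The list score overlapped between groups, at 5.27 to 6.51 on chow and 5.80 to 7.33 on HFD. Lox, lysyl oxidase, which cross-links collagen and elastin, lay from 32.3 to 87.8 CPM on chow (median 64) and from 135 to 416 CPM on HFD (median 204), without overlap (log2 fold change 1.94, SE 0.33, adjusted p = 0.000774). Bgn, the proteoglycan biglycan, lay from 79.9 to 117 CPM on chow (median 98.7) and from 140.0 to 321 CPM on HFD (median 182) (log2 fold change 1.10, adjusted p = 0.00279). Thbs1, the matricellular protein thrombospondin 1, lay from 5.29 to 17.1 CPM on chow (median 7.76) and from 18.4 to 129 CPM on HFD (median 38.1) (log2 fold change 2.56, adjusted p = 0.00434). Mmp9, a gelatinase, was among the 3 that fell, from 5.12 to 14.7 CPM on chow (median 9.17) and from 1.34 to 3.88 CPM on HFD (median 2.67) (log2 fold change -1.88, adjusted p = 0.00123). Lox and Bgn rose in lymphocyte-rich (2.20 and 0.65) and lymphocyte-poor libraries (2.31 and 1.66). Wisp2, a Wnt target secreted by fat progenitors, lay from 1.95 to 7.51 CPM on chow (median 4.09) and from 13.5 to 153 CPM on HFD (median 36.1) (log2 fold change 3.62, adjusted p = 0.00102), while 2 of 21 progenitor and fibroblast genes rose in all (median -0.20).

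Some genes of oxygen sensing rose, whereas few endothelial genes did. Hif1a, the oxygen-regulated transcription factor, lay from 53 to 85.5 CPM on chow (median 69.7) and from 115 to 238 CPM on HFD (median 148), without overlap (log2 fold change 1.16, SE 0.18, adjusted p = 0.00034). Fgf1, a growth factor that adipocytes produce on high-fat feeding, lay from 8.81 to 29.3 CPM on chow (median 14.7) and from 41.3 to 139 CPM on HFD (median 67.4), also without overlap (log2 fold change 2.24, SE 0.36, adjusted p = 0.000531). In the hypoxia and angiogenesis list 5 of 18 members rose and 0 fell (median 0.13), beside 14.3% and 11.7% of kept genes. Vwf, the von Willebrand factor of endothelium, lay from 8.97 to 12.7 CPM on chow (median 10.4) and from 15.6 to 39.9 CPM on HFD (median 17.8) (log2 fold change 1.05, adjusted p = 0.0062). Of 19 endothelial genes 2 rose, beside 14.3% of kept genes. The endothelial score overlapped between groups, at 4.548 to 5.526 on chow and 4.747 to 5.825 on HFD.

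Macrophage genes showed no call over all 12 libraries by edgeR, 0 higher and 0 lower of 25 (median 0.35). At an unadjusted p below 0.05 edgeR had 2 members, DESeq2 called 1 higher and voom 7 higher and 1 lower. DESeq2 called 17.5% of kept genes higher and 14.4% lower, and voom 27.1% and 21.5%. Their score was 3.84 to 5.46 on chow and 4.26 to 5.78 on HFD. Among the lymphocyte-poor libraries 17 of them rose (median 1.30), where 24.5% of kept genes rose, and among the lymphocyte-rich ones 0 rose and 1 fell (median -0.48), where 16.5% and 10.0% did. Of lipid-associated macrophage genes, which mark macrophages that clear lipid from dying adipocytes, 2 of 18 rose over all libraries and 11 in the lymphocyte-poor ones. Gpnmb, a lysosomal glycoprotein of these cells, was at 100.4 and 140.1 CPM in HFD libraries 10 and 12 and between 7.83 and 13.8 in the other HFD libraries, beside from 3.96 to 15.2 CPM (median 11.6) on chow. Atp6v0d2, a subunit of their proton pump, lay from 0.230 to 1.55 CPM on chow (median 0.742) and from 0.497 to 38.5 CPM on HFD (median 1.75) (log2 fold change 3.77, adjusted p = 0.0257). The call of Atp6v0d2 was lost with voom (1.28, adjusted p = 0.312) and in edgeR with the replicate block (2.01, adjusted p = 0.217). The score of a lymph node stroma list was 4.255 and 3.645 in chow libraries 8 and 11 and 0.448 to 1.356 in the other chow libraries. On HFD it was 2.958, 3.84, 2.252 and 3.905 in libraries 7, 8, 9 and 11. In HFD libraries 10 and 12 it was 1.161 and 1.779. Whether lymphocyte transcripts came from the node or from the fat itself was not tested. Their part in the macrophage values was not tested either.

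Of other immune genes, some members of the interferon and antigen presentation lists fell. The interferon response list had 4 of 20 members lower and 0 higher (median -0.54), beside 11.7% and 14.3% of kept genes. The antigen presentation list had 3 of 16 members lower, 0 higher and 13 that did not pass the test, beside the same shares. Its median log2 fold change was 0.07, so the list as a whole was not lower on HFD. Irf7, a driver of type I interferon genes, lay from 40.8 to 58.2 CPM on chow (median 45) and from 20.2 to 38.3 CPM on HFD (median 25.3), without overlap (log2 fold change -0.82, adjusted p = 0.00246). Irf1 had a log2 fold change of -1.03 (adjusted p = 0.0172). Tap2, a peptide transporter for MHC class I, lay from 106 to 144 CPM on chow (median 125) and from 60.9 to 103 CPM on HFD (median 83.3) (log2 fold change -0.63, adjusted p = 0.00473), and H2-K1, a class I heavy chain with 9 pseudogene copies, from 1923 to 2732 CPM on chow (median 2199.9) and from 1110.0 to 1662 CPM on HFD (median 1402) (log2 fold change -0.76, adjusted p = 0.00378). Irf7, Irf1, Tap2 and H2-K1 had negative log2 fold changes in both sets of libraries, from -1.30 to -0.59 in the lymphocyte-rich set. C3, the central complement component, which adipocytes also secrete, lay from 859 to 1763 CPM on chow (median 1315) and from 308 to 805 CPM on HFD (median 456) (log2 fold change -1.41, adjusted p = 0.00321), while Serping1, the inhibitor of complement C1, rose, from 82.3 to 178 CPM on chow (median 102) and from 143 to 457 CPM on HFD (median 262) (log2 fold change 1.22, adjusted p = 0.00588). S100a8, a calcium-binding protein of neutrophils, lay from 0.649 to 2.07 CPM on chow (median 0.929) and from 4.01 to 21.8 CPM on HFD (median 7.59), without overlap (log2 fold change 3.27, SE 0.53, adjusted p = 0.000529).

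The remaining genes with the largest changes belonged to no list. Among those that rose, Folh1, a carboxypeptidase of folate and glutamate peptides, lay from 0.121 to 1.31 CPM on chow (median 0.633) and from 8.55 to 76.5 CPM on HFD (median 35.6) (log2 fold change 5.92, adjusted p = 6.36e-05). Slc5a7, the choline transporter, lay from 0.162 to 3.27 CPM on chow (median 0.624) and from 10.9 to 254 CPM on HFD (median 51.8) (log2 fold change 5.95, adjusted p = 0.000719). Lipf, gastric lipase, lay from 0.148 to 0.622 CPM on chow (median 0.376) and from 3.09 to 79.3 CPM on HFD (median 6.00) (log2 fold change 5.81, adjusted p = 0.000752), and Unc79, a subunit of a sodium leak channel, from 0 to 0.304 CPM on chow (median 0.151) and from 3.59 to 31.8 CPM on HFD (median 7.62) (log2 fold change 6.34, adjusted p = 6.35e-05). In these 4 genes the groups did not overlap, and the chow values of Unc79 and Lipf were under 1 CPM. Cpne1, a copine that binds phospholipids in a calcium-dependent way, lay from 0.0811 to 0.547 CPM on chow (median 0.284) and from 67.4 to 71.6 CPM on HFD (median 68.7). Other genes share 84.1% of its exon length, and the part of the count table in its values cannot be told apart from that of the cohort. Its log2 fold change was 7.79 in D316A-Tg and 7.25 in WT-Tg.

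Among those that fell, Gpx8, a peroxidase of the endoplasmic reticulum, lay from 108 to 345 CPM on chow (median 287) and from 16.7 to 30.1 CPM on HFD (median 24.9) (log2 fold change -3.34, SE 0.30, adjusted p = 2.47e-06). Pth1r, the receptor of parathyroid hormone and its related peptide, lay from 24.1 to 125 CPM on chow (median 54.8) and from 1.82 to 4.88 CPM on HFD (median 3.07) (log2 fold change -4.18, SE 0.40, adjusted p = 4.82e-06). Sorcs2, a sorting receptor, lay from 17.1 to 88.4 CPM on chow (median 25.4) and from 1.02 to 5.13 CPM on HFD (median 2.88) (log2 fold change -3.62, adjusted p = 0.000355), and Aspg, an asparaginase, from 31.6 to 119 CPM on chow (median 49.4) and from 1.05 to 12.9 CPM on HFD (median 1.7) (log2 fold change -4.15, adjusted p = 0.000535). The groups did not overlap for these 4 genes. Ttc25, a ciliary protein, lay from 6.02 to 23.8 CPM on chow (median 11.7) and from 0.464 to 4.36 CPM on HFD (median 1.07) (log2 fold change -3.17, adjusted p = 0.00106). Cited1, a transcriptional coactivator, was at most 0.22 CPM on HFD and from 0.729 to 15.9 CPM (median 3.96) on chow. Awat2, a wax synthase of sebaceous glands, rests on chow library 8, which held 68.9 CPM while the other 11 libraries held 1.30 or less (log2 fold change -4.87, adjusted p = 0.0213). Wdr89, a WD-repeat protein, lay from 424 to 589 CPM on chow (median 477) and from 14.1 to 22.3 CPM on HFD (median 20.8), but it has 7 pseudogene copies and fell in WT-Tg too (log2 fold changes -4.69 and -4.98).

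A few clock genes were called, in both directions. Rora, a nuclear receptor of the clock, lay from 29.6 to 67.6 CPM on chow (median 58.8) and from 76.4 to 102 CPM on HFD (median 90.5) (log2 fold change 0.75, adjusted p = 0.0105). In the clock list 2 members rose and 2 fell of 18, beside 14.3% and 11.7% of kept genes, so the counts set the list apart in neither direction. Jun and Fosl2, subunits of AP-1, rose without overlap, Jun from 17.1 to 40.7 CPM on chow (median 32) and from 42.1 to 109 CPM on HFD (median 61.4) (log2 fold change 1.10, adjusted p = 0.00503) and Fosl2 from 19.2 to 40.1 CPM on chow (median 27.3) and from 41.6 to 97.7 CPM on HFD (median 52.3) (log2 fold change 1.02, adjusted p = 0.00397). Of 18 early response genes 5 rose and 0 fell, beside 14.3% and 11.7% of kept genes.

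Most calls were shared with the other transgene. Of the 2893 kept genes called in D316A-Tg, 2063 (71.3%) were called in the same direction in WT-Tg, and 99 (3.42%) in the opposite direction. In WT-Tg 62.0% of all genes tested were called (28.7% higher, 33.3% lower) and 59.3% of kept genes (29.3% higher, 30.0% lower). Mest, Sfrp5, Lep and Npr3 had log2 fold changes of 5.52, 3.57, 3.87 and 3.05 in WT-Tg. The test of the difference between transgenes gave adjusted p of 0.583, 0.114, 0.691 and 0.586 for them.

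The change of several lipogenic enzymes was more negative in D316A-Tg, but these calls were lost under several alternatives. The difference of the log2 fold change, D316A-Tg minus WT-Tg, was -1.55 for Fasn (SE 0.44, adjusted p = 0.0247), -1.70 for Acly (SE 0.48, adjusted p = 0.0257) and -1.19 for Tkt (SE 0.38, adjusted p = 0.0437). The WT-Tg log2 fold changes of these 3 genes were -1.16, -1.79 and -1.47. In the lipogenesis list 9 of 19 members had a called difference, all more negative. With the B lymphocyte score as covariate Fasn, Acly and Tkt were at -0.92, -0.98 and -0.61 (adjusted p = 0.186, 0.201 and 0.339), and 2 members were called more negative and 1 more positive, beside 2.73% of kept genes more negative. Without libraries with a B lymphocyte score over 3 Fasn was at -1.67 (adjusted p = 0.0526) and Acly at -1.54 (adjusted p = 0.126). Tkt kept its call in that fit (-1.38, adjusted p = 0.0198), but lost it in 17 of 24 fits that left out a library. Hmgcs1 rose less in D316A-Tg than in WT-Tg (1.46 against 2.50, difference -1.01, adjusted p = 0.0328), and 11 of 19 cholesterol genes had a called negative difference and 1 a positive one. The Hmgcs1 difference was -0.69 (adjusted p = 0.133) with the B lymphocyte score as covariate and -0.59 (adjusted p = 0.0622) without libraries over a score of 3, and its call was lost in 7 of 24 fits that left out a library. With the B lymphocyte score as covariate 6 cholesterol genes were called more negative. For respiratory subunits 13 of 46 differences were called negative and 0 positive, and 0 and 0 with the B lymphocyte score as covariate. Without libraries over a score of 3 they were 41 and 0, where 549 of 11909 kept genes were called negative. In that fit WT-Tg chow was libraries 5 and 6 only and D316A-Tg HFD was libraries 10 and 12 only. WT-Tg chow libraries 5 and 6 had the highest muscle scores of their group (4.94 and 6.25), and the part of muscle in these calls was not tested. With the muscle score as covariate the respiratory differences called negative and positive were 0 and 0. Over all kept genes 1589 of 11881 differences were called (13.4%), 829 positive (6.98%) and 760 negative (6.40%). Over all genes tested the share was 12.9% (6.08% positive, 6.86% negative). The balance of directions among kept genes depended on the fit. It was 690 positive and 913 negative with the genes set aside removed before the fit. With the B lymphocyte score as covariate it was 752 positive and 324 negative.

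Among the named genes the largest differences between transgenes were those of muscle genes. Acta1 differed by 8.44 and Myh4 by 11.93, and both fell in WT-Tg (-3.74 and -6.16). The muscle score was -0.04 to 6.25 and -0.17 to 2.68 in WT-Tg on chow and HFD, and -0.54 to 3.79 and 2.53 to 7.49 in D316A-Tg. The B lymphocyte score also differed between the transgenes. It was over 3 in WT-Tg chow libraries 1 to 4 (6.37 to 6.74) and HFD library 3 (5.24), and at most 0.86 in the other WT-Tg libraries, so 4 of 6 chow and 1 of 6 HFD libraries were lymphocyte-rich there, against 2 of 6 and 4 of 6 in D316A-Tg. The part of lymphocytes in the differences between transgenes was not tested beyond these fits. With the muscle score as covariate 1 difference of all genes was called, a single negative one. Leaving out D316A-Tg HFD library 11 gave 1062 called kept genes and leaving out D316A-Tg chow library 8 gave 3233.

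The differences with the lowest adjusted p outside the muscle genes include a ubiquitin ligase. Ube3a, that ligase, rose in D316A-Tg, from 34.5 to 49.3 CPM on chow (median 39.6) and from 58.6 to 68.2 CPM on HFD (median 61.4), but by less than in WT-Tg (0.62 against 1.66, difference -0.99, adjusted p = 0.000289). Exons of other genes overlap 27.3% of its exon length. Alg14, of N-glycan assembly, had a difference of -2.05 (adjusted p = 0.00125), with -0.65 in D316A-Tg (adjusted p = 0.0479) and 1.44 in WT-Tg. The D316A-Tg call was lost in 8 of 12 fits that left out a library. Rwdd3, an enhancer of SUMO conjugation, fell in D316A-Tg (-2.13) and was at 0.01 in WT-Tg (difference -2.09, adjusted p = 0.00205), with 39.8% of its exon length shared. In the other direction the transcription activator Camta2, the nuclear protein Prr12, the Polycomb subunit Cbx6 and the zinc finger protein Wiz had differences of 0.82, 0.87, 1.12 and 0.74. Camta2 did not pass the test in D316A-Tg (-0.05) and fell in WT-Tg (-0.83). Pak1ip1, of ribosome assembly, was likewise not called in D316A-Tg (-0.14, adjusted p = 0.403) and rose in WT-Tg (0.91).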

How the data were processed

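The authors deposited whole-number counts of reads for each gene, in a chow table and an HFD table (39017 and 38483 genes). Per the submitters' processing notes and the labels, conversion of base calls used bcl2fastq 2.20.0.422 (chow) or bclfastq 2.16.0.10 (HFD), reads were checked with FastQC and aligned with STAR 2.4.1 to mm10, and DESeq2 is named. Libraries were made with a stranded TruSeq mRNA kit from RNA of integrity number 7 or more, per the labels. The sources used here do not give the counting tool, annotation or strand setting, so overlapping genes are uncertain.

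The tables were joined on 38013 shared Ensembl identifiers, 1347 of them with different symbols. Positions and biotypes came from GENCODE M21 on GRCm38, which holds 96.6% of the identifiers, and coordinates are 1-based. Set aside from counts and naming were predicted genes and clones, pseudogenes, genes absent from the annotation, antigen receptor segments, genes with at most 3 counts in every library of 1 table and at least 5 CPM in the other, and genes with a processed pseudogene copy (blastn 2.17.0+, identity of 90% or more over 200 bases). Shorter copies, from 100 bases, are given beside the gene. Promoters came from RefSeq (GRCm38.p6).

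Tests were edgeR 4.0.16 quasi-likelihood in R 4.3.3 (TMM, filterByExpr, robust) on the 12 D316A-Tg libraries, on the 12 WT-Tg libraries, and on all 24 for the difference. They were tested on simulated data. CPM are TMM-scaled over 24 libraries, and log2 CPM used a prior count of 2. Replicates within a group differed by more than sampling noise (lowest chi-square per degree of freedom 13.5). A single count is under 0.1 CPM, and spread between libraries limits precision above a few CPM. Alternatives were other scalings, DESeq2 1.42.0, limma voom 3.58.1, other filters, marker scores as covariates, the replicate block and leaving out libraries; the splits at a B lymphocyte score of 3 were chosen after seeing the data.

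The 46 gene lists (935 genes, 4 unmatched) and the comparison itself were chosen with earlier results of these data known. Named genes are 6 always given (Lep, Adipoq, Mest, Fasn, Ucp1, Prkag1), the 10 largest changes in each direction at 5 CPM or more, the called members of each described list that rank first by adjusted p (4 at most), and the lowest adjusted p among transgene differences. Some genes under this rule are not reported here. mt-Co1 and single libraries described were chosen after their values were seen.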

Additional observations from a re-analysis of the deposited data

Results flagged for a closer look

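In a group of 6 libraries, a value was taken to stand apart when its gap to the nearest other value took a larger share of the group's range than Dixon's limit for 6 values allows. For normally distributed values chance alone gives about 1 in 20 groups. Genes were examined in CPM without logarithm, for which the rate by chance was not examined and may be higher. Of 212 combinations of a named gene and a D316A-Tg group, 35 passed, and 24 of these were the high value of HFD library 7. In CPM this library held 1050 of Ucp1, 752 of Prkag1, 2.32 of the fructose transporter Slc2a5, 12.9 of Aspg, 4.36 of Ttc25, 272 of Gpd2, 55.8 of Acot11 and 11.5 of Ppargc1b. Of muscle genes it held 6910 of Myh4, 3650 of Acta1, 1300 of Actn3, 550 of Neb, 445 of Mylk4, 374 of Ryr1, 208 of Mylk2 and 89.2 of Jph2. Of mitochondrial genes it held 42500 of mt-Co1, 42.9 of mt-Co3, 95.6 of Ndufa1, 138 of Ndufa6, 202 of Uqcr10, 427 of Sdhb, 534 of Idh3b and 628 of Hadha. Of 92 list scores 2 stood apart, both in this library: mitochondrial genome transcripts at 7.29 and heat shock genes at 6.06.

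HFD library 12 stood apart with high values of Slc5a7 (254 CPM), Lipf (79.3 CPM), Pmvk (99.8 CPM), Alg14 (22.4 CPM) and Tm7sf2 (12.9 CPM), and HFD library 10 with Wisp2 (153 CPM) and Fosl2 (97.7 CPM). On chow, library 8 stood apart for Awat2 (68.9 CPM) and Ryr1 (9.08 CPM) and library 9 for Pth1r (125 CPM) and Sorcs2 (88.4 CPM).

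The change from chow to HFD differed between the transgenes, by edgeR's test of the difference, in 38 of the 106 named genes. Over all kept genes 1589 of 11881 (13.4%) did. Some named genes were chosen by this same test, so the count among them is not a result about them. The value given for each gene is the log2 fold change in D316A-Tg minus that in WT-Tg. It was more positive for 15 genes. These were the muscle genes Myh4 (11.93), Actn3 (11.85), Mylk4 (10.77), Mylk2 (10.62), Ryr1 (9.18), Acta1 (8.44), Neb (7.63) and Jph2 (7.22), then Folh1 (3.97), Prkag3 (3.31), Cbx6 (1.12), Prr12 (0.87), Foxo1 (0.86), Camta2 (0.82) and Wiz (0.74).

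It was more negative for 23 genes. Of lipid synthesis these were Acly (-1.70), Fasn (-1.55), Pmvk (-1.38), Tkt (-1.19), Tm7sf2 (-1.12), Hmgcs1 (-1.01), Elovl5 (-0.80) and Hsd17b7 (-0.73). Of mitochondria and glycolysis they were Pcx (-1.50), Dlat (-1.39), Pfkl (-1.32), Hadha (-1.08), Uqcr10 (-0.99), Cox7c (-0.77) and Ndufa1 (-0.76). The others were Rwdd3 (-2.08), Alg14 (-2.05), Pth1r (-1.70), Rora (-1.05), Gpx8 (-1.04), Pak1ip1 (-1.01), Ube3a (-0.99) and Hif1a (-0.99). With the muscle score as covariate 1 gene of all those tested was called, and the part of muscle content in these differences was not tested further.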

How the results depend on the processing

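The number of genes called in D316A-Tg, 4546 in all and 2893 of those kept (the genes not set aside), moved by over 1.5 times under 5 alternatives. The counts were 7676 and 5420 with voom and sample quality weights, 7015 and 4980 with the B lymphocyte score as covariate, and 1970 and 914 with the skeletal muscle score. They were 6829 and 4752 without libraries with a B lymphocyte score over 4, and 7112 and 4954 without those over 3, a limit chosen after seeing the data. Leaving out single libraries gave 3598 to 5129 in all and 2130 to 3342 kept. In WT-Tg the 9304 and 6726 calls became 6096 and 4127 with both scores, and 8613 to 10263 and 6099 to 7468 without single libraries. The difference between transgenes, 2080 and 1589 genes, had 10372 and 7840 calls with voom, 1316 in all with the B lymphocyte score, 1 and 1 with the muscle score and 32 and 27 with both. Without single libraries it had 1368 to 4304 in all and 1062 to 3233 kept. The libraries that moved it by over 1.5 times were D316A-Tg chow 8 (4304 and 3233), D316A-Tg HFD 11 (1368 in all), WT-Tg chow 3 (1383 in all), WT-Tg chow 5 (3329 and 2516) and WT-Tg chow 6 (3142 and 2389). The cause was not tested.

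A change of sign was found for these values. Prkag1, at 0.02, became -0.012 with upper-quartile scaling, -0.27 with voom, -0.018 with a mean count of at least 50 and -0.016 with the genes set aside removed. It was -0.44 with the muscle score, -0.35 with both scores, and -0.36 and -0.33 without libraries over a B lymphocyte score of 4 and 3. Without single libraries it was -0.25 (HFD library 7) to 0.14 (HFD library 11). Adipoq, at -0.26, was 0.27 with the B lymphocyte score, 0.15 with the muscle score, 0.44 with both and 0.58 in only the libraries over a score of 3, also chosen after seeing the data. Myh4 was -1.54 with the muscle score and -0.24 with both, and Actn3 -0.19 with the muscle score. Pak1ip1 was 0.071, 0.094 and 0.060 with the muscle score, both scores and without libraries over a score of 3. In only the libraries over a score of 3 Dgat1 was 0.021, Adrb3 0.055 and Camta2 0.058. Without single libraries Camta2 was -0.099 (HFD library 9) to 0.0025 (HFD library 12). Of the differences between transgenes, the muscle score turned Mylk4 (-0.12), Mylk2 (-0.57), Myh4 (-3.02), Actn3 (-0.50), Neb (-0.92) and Acta1 (-0.89), and both scores Mylk2 (-0.17), Myh4 (-1.51) and Neb (-0.63). The cause was not tested.

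The replicate numbers in the titles were not taken to pair libraries: the correlation of deviations of same-numbered D316A-Tg libraries ranged from -0.29 to 0.62, and libraries 7, 9, 11 and 12 matched another number best. With the number as a replicate block 4406 genes were called, 2790 of them kept (1609 higher, 1181 lower), and Prkag1 was at -0.040. The D316A-Tg libraries held 14756322 to 20774533 counts, so genes at a few counts were filtered out and not analysed here.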

Other observations

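Of 20 genes of the unfolded protein response 4 rose and 3 fell in D316A-Tg (median -0.05), beside 14.3% and 11.7% of kept genes. Edem1, which hands misfolded proteins to degradation, lay from 102 to 148 CPM on chow (median 129.9) and from 139 to 275 CPM on HFD (median 189) (log2 fold change 0.62, adjusted p = 0.0135), and Pdia6, a disulfide isomerase, from 159 to 335 CPM on chow (median 257) and from 138 to 183 CPM on HFD (median 161) (log2 fold change -0.61, adjusted p = 0.0188). Antioxidant genes had 1 higher and 3 lower of 17, and lysosome and autophagy genes 1 and 2 of 24. In the senescence list 2 rose and 1 fell of 13. The score of that list was higher on HFD without overlap, at 4.909 to 5.195 on chow and 5.51 to 5.873 on HFD. Igfbp7, a secreted binding protein of insulin-like growth factors, lay from 147 to 324 CPM on chow (median 241) and from 106 to 164 CPM on HFD (median 129.7) (log2 fold change -0.84, adjusted p = 0.00545).

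Of 15 cell division genes 11 rose in the lymphocyte-poor libraries, where 24.5% of kept genes rose, at a median of 1.87. In the lymphocyte-rich libraries the median was -0.62 with 0 higher and 0 lower. T lymphocyte genes had a median of -0.44 over 24 members, B lymphocyte genes one of 0.40 over 16, and Schwann cell and nerve genes one of -0.22 over 13. By edgeR 0 genes of these 3 lists and of the cell division list were called over all 12 libraries. At an unadjusted p below 0.05 there were 0 T lymphocyte, 0 B lymphocyte, 3 Schwann and 0 cell division members. DESeq2 called 0, 0, 1 and 0 of them higher and 1 Schwann member lower, and voom with sample quality weights 19, 13, 0 and 13 higher and 2 Schwann members lower.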
